A study of Mus musculus with 116 samples.

Results

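The replication-dependent core histone genes of the mouse were followed from the oocyte to the late 2-cell embryo. Members were chosen by name alone: every gene symbol that begins with Hist1, Hist2, Hist3 or Hist4 followed by h2a, h2b, h3 or h4, with the linker histones left out. The rule found 62 of 24084 gene symbols, made up of 18 H2A, 19 H2B, 12 H3 and 13 H4 genes. RefSeq places 47 of them on chromosome 13, 10 on chromosome 3, 3 on chromosome 11 and 1 on chromosome 6, and Hist1h2ap matched more than 1 RefSeq gene.

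The series studied transcription in wild-type mouse oocytes and preimplantation embryos, and the 5 total RNA libraries used here each came from about 100 pooled oocytes or embryos. The females were 8-week-old C57BL/6N mice given PMSG and hCG, the hormones that induce follicle growth and ovulation, and the embryos had PWK fathers. MII oocytes, which are mature and unfertilised, were taken 13 h after hCG, zygotes at PN5, the late pronuclear stage, at 30 h, and early 2-cell embryos at 36 h. Both late 2-cell groups began as zygotes collected 23 h after hCG and were cultured for 14 h in KSOM medium. The group labelled mTBE received 60 uM DRB, which inhibits elongation by RNA polymerase II, and the control group received 0.1% DMSO, the solvent. Both were released at the 2-cell stage and cultured for another 12 h. The labels do not spell out mTBE, which serves here as a name. Another 2 libraries held RNA of the ICM, the inner cell mass of the blastocyst, at 98 h; they were made from polyadenylated RNA and serve only as a note. The other 109 of the 116 samples were not analysed here.

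Replication-dependent histone genes lie in clusters and supply the histones that package newly copied DNA. Their mRNAs end in a stem-loop in place of a poly(A) tail. The stem-loop is bound by SLBP, is formed by cleavage guided by the U7 small nuclear ribonucleoprotein, and marks the mRNA for rapid decay when DNA synthesis stops. Oocytes store histone mRNA and protein for the first cell cycles, and Hist1h2aa and Hist1h2ba encode TH2A and TH2B, a germline pair that is stored in the egg. Many H2A and H2B genes sit head to head and share the DNA between their starts.

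The letters upstream of the members show how alike and how unlike these genes are. RefSeq (GRCm38.p6) gave a promoter window of 300 bases, 250 before and 50 after the start, for 55 of the 62 members. Windows are printed for 5 members on which the values below turn: Hist3h2a, the most abundant H2A gene in both late 2-cell libraries; Hist1h2bk, the most abundant H2B gene in each total RNA library; Hist1h3b, an H3 gene that was far lower in PN5 than on either side of it; Hist1h4c, the most abundant H4 gene; and Hist1h2ba, the germline H2B gene. They span chr11:58954435-58954734 on the plus strand for Hist3h2a, chr13:22035571-22035870 on the plus strand for Hist1h2bk, chr13:23752095-23752394 on the plus strand for Hist1h3b, chr13:23698409-23698708 on the minus strand for Hist1h4c and chr13:23934107-23934406 on the minus strand for Hist1h2ba. Each is written 5′ to 3′ on the gene's strand. Capitals mark TATAAA on the gene's strand, CCAAT on either strand (ATTGG on the opposite one) and ATTTGCAT on either strand (ATGCAAAT on the opposite one).
Hist3h2a: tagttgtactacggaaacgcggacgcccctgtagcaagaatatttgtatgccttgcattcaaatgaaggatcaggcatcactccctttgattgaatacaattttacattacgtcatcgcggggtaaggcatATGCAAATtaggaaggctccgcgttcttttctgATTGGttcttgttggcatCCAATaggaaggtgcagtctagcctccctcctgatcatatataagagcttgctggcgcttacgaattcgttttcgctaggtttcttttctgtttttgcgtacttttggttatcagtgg
Hist1h2bk: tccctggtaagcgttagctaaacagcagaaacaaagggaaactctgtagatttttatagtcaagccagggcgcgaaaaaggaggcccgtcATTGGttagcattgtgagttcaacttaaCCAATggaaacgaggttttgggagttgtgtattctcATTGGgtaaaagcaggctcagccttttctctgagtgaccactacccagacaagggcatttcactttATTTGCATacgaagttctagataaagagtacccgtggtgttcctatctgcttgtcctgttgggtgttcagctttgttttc
Hist1h3b: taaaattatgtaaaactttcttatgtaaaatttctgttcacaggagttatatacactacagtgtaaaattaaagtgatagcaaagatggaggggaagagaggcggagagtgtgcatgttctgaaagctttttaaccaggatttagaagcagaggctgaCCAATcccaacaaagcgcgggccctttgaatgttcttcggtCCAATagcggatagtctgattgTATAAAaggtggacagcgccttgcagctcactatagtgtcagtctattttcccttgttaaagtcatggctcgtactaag
Hist1h4c: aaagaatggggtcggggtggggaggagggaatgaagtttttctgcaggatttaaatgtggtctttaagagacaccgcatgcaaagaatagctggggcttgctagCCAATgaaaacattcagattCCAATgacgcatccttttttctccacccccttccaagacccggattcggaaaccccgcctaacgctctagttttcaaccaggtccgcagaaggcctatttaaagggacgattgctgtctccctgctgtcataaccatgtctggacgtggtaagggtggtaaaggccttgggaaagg
Hist1h2ba: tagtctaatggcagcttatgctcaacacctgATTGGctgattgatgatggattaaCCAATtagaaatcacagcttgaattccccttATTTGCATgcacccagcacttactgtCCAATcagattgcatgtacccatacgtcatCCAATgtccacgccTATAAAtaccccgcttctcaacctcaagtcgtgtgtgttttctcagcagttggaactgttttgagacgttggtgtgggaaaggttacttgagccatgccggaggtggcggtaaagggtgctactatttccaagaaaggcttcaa

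TATAAA, the core of the TATA box, was found in 26 of 55 member windows (47.3%), against 8.32% of the 32851 RefSeq promoter windows of the same length. CCAAT, the letters recognised by NF-Y, was found in 46 of 55 (83.6%), against 37.4% of all windows. The classes differed here: all 17 H2A, all 16 H2B and all 10 H3 windows held it, and 3 of 12 H4 windows did. The octamer ATTTGCAT, read by the POU factor Oct1, was found in 7 of 17 H2A and 7 of 16 H2B windows and in no H3 or H4 window (0 of 10 and 0 of 12), against 1.74% of all windows. The 3 motifs were searched separately, so matches may overlap, and windows of head-to-head genes share bases and are not independent. Matches were counted anywhere in the window, with no limit on position. TATAAA began at -29 from the start in Hist1h3b and at -94 in Hist1h2ba. A match describes letters and shows no binding and no working TATA box.

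Before the levels, some copies had to be set apart. Values are the authors' FPKM (mapped fragments scaled by transcript length and by library size), and each total RNA group held 1 library, so no difference below has a replicate check, a p-value or an SD. PN5 and both late 2-cell libraries stand in a shared table, while MII and early 2-cell each have a table of their own, and these tables were normalized separately. By the fixed rule, under 1 FPKM in every library of one kind of table and at 10 FPKM or more in the other kind, 7 members were set apart. Hist1h2ao, Hist1h2ap, Hist1h2br, Hist1h4n, Hist2h3c1 and Hist2h3c2 were listed at 0 in PN5 and in both late 2-cell libraries and at 14.1 to 446 FPKM in MII and early 2-cell. Hist2h2ab showed the opposite, with 4.63 FPKM in mTBE and 15.6 FPKM in control late 2-cell embryos and at most 0.642 FPKM in the single-library tables.

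The pair Hist2h2aa1 and Hist2h2aa2 was added after its values were seen. Hist2h2aa1 stood at 1152 FPKM in MII, 1.63 in PN5, 3052 in early 2-cell, and under 0.001 in both late 2-cell libraries. Hist2h2aa2 stood at 1075 FPKM in MII, 0.000897 in PN5, 2848 in early 2-cell, 10.5 in mTBE and 3.20 in control. Hist1h2bq was added as well, because its values, 17.6 FPKM in MII and 28.8 FPKM in early 2-cell, were used in those tables only. That leaves 52 members, called kept below. Near-identity of these copies shows in their windows too: the longest run of letters shared by Hist1h2bq and Hist1h2br was 300 of 300 bases, by Hist1h4m and Hist1h4n 285, by Hist2h3c1 and Hist2h3c2 231, and by Hist2h2aa1 and Hist2h2aa2 219. How reads that match several copies were assigned is not given in the sources used here, so each single-copy value below is uncertain, more so between tables. Some members were listed in 2 rows each, 9 in each single-library file and 8 in the 3-library file. In the single-library files both rows held identical values, so their sums count that value double.

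The copies set apart made up most of one class in one kind of table. With repeated rows summed, they held 87.7% of the summed H2A FPKM in MII and 92.8% in early 2-cell, but 0.32% in PN5, 1.13% in mTBE and 1.51% in control. Of the H3 sum, also with repeated rows summed, they held 39.3% in MII and 31.0% in early 2-cell. With all members and repeated rows summed, H2A over H2B was 3.23 in MII, 0.338 in PN5, 5.96 in early 2-cell, 0.267 in mTBE and 0.336 in control. The MII and early 2-cell values count identical rows double. With only the highest of repeated rows, H2A summed to 1445 FPKM and H2B to 779 FPKM in MII. In early 2-cell the sums were then 3458 FPKM for H2A and 1053 FPKM for H2B. Without the copies set apart, H2A over H2B stood at 0.414 in MII, 0.337 in PN5, 0.454 in early 2-cell, 0.264 in mTBE and 0.331 in control. The swing of H2A between tables therefore rested on these copies, and stage and table cannot be told apart for them.

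**Figure D1:**
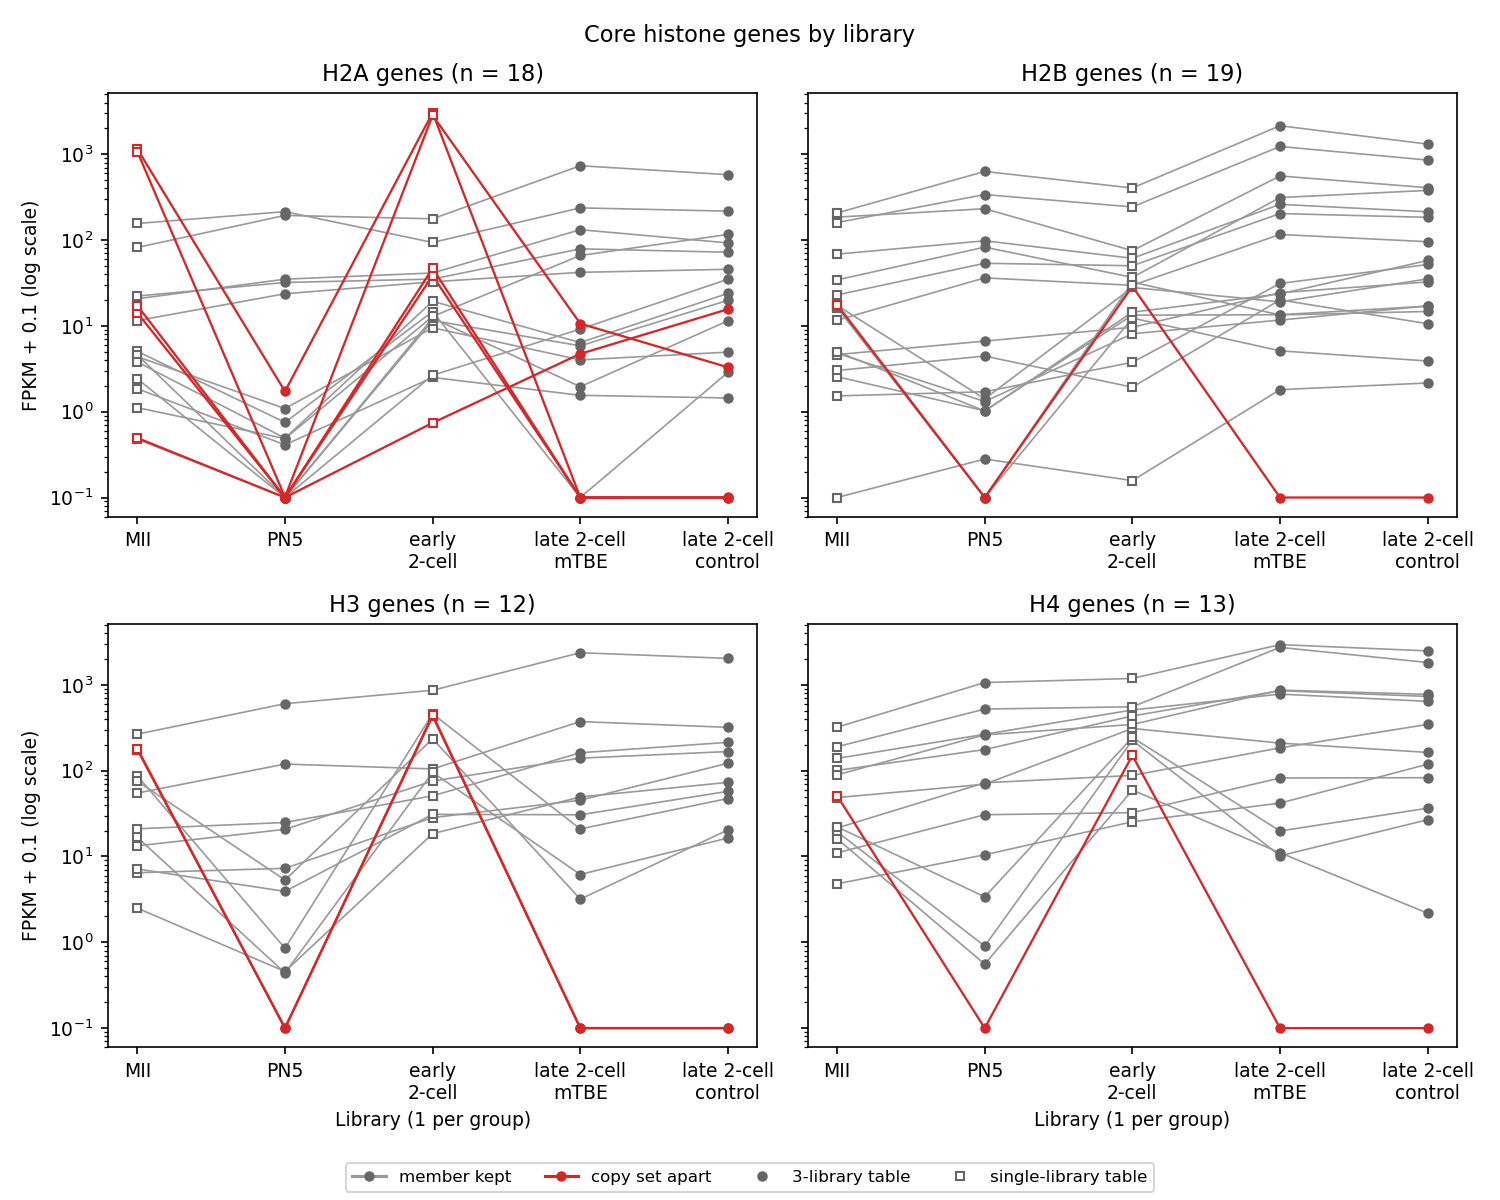
FPKM of each of the 62 members (plus 0.1, log scale) in the 5 total RNA libraries, 1 panel for each histone. Grey marks are the 52 kept members and red marks the copies set apart, which lie at 10.5 FPKM or below in the 3-library table (filled circles) and lie at 14.1 FPKM or above in the single-library tables (open squares), apart from Hist2h2ab, which shows the reverse.

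Among the kept members, histone mRNA made up a larger share of the library at the 2-cell stages than in oocytes and zygotes. The kept members summed to 2610 FPKM in MII, 5259 in PN5, 7474 in early 2-cell, 18279 in mTBE and 15237 in control. As a share of the library's summed FPKM, which is less tied to each table's scaling, this was 0.905% in MII, 1.48% in PN5, 3.51% in early 2-cell, 5.10% in mTBE and 4.35% in control. The copies set apart were then included, with repeated rows summed. That gave 1.84% in MII, 1.48% in PN5, 6.84% in early 2-cell, 5.11% in mTBE and 4.35% in control. MII and early 2-cell then stood above the libraries of the 3-library table that follow them. This order counts repeated rows with identical values double, so it is not secure. With only the highest of repeated rows, the sum of all members fell from 5311 to 3961 FPKM in MII and from 14551 to 11013 FPKM in early 2-cell. That sum was 5260 FPKM in PN5, 18289 in mTBE and 15254 in control. By kept members H4 was the largest class in each of these libraries. Its kept sum was 983 FPKM in MII, 2479 in PN5, 4019 in early 2-cell, 8752 in mTBE and 7245 in control. By kept members H2A was the smallest, with 315, 502, 465, 1321 and 1222 FPKM in the same order. With all members and repeated rows summed, H2A was the largest in MII (2574 FPKM, H4 1034 FPKM) and in early 2-cell (6451 FPKM, H4 4170 FPKM). With only the highest of repeated rows, H2A stayed the largest in MII (1445 FPKM, H4 1009 FPKM). In early 2-cell H4 was then the largest (4094 FPKM, H2A 3458 FPKM). In total RNA from pools of embryos, more RNA per embryo and a larger share of a smaller RNA pool cannot be told apart.

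**Figure D2:**
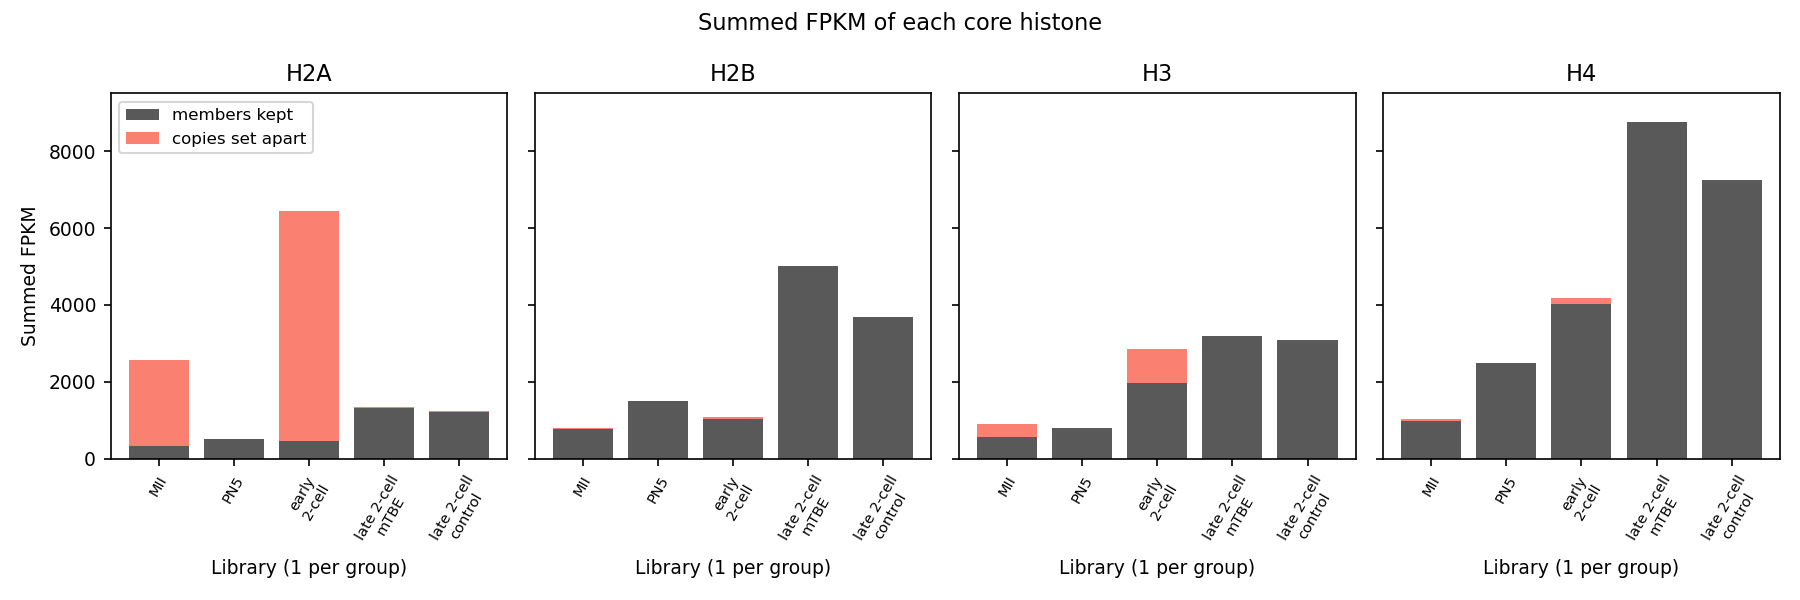
Summed FPKM of H2A, H2B, H3 and H4 genes in the 5 total RNA libraries (1 bar per library). Dark bars are kept members and light bars the copies set apart. With identical repeated rows summed, these copies hold 87.7% of H2A in MII and 92.8% in early 2-cell.

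The libraries were checked against marker genes. The 5 oocyte markers, Gdf9 and Zp3 among them, summed to 3236 FPKM in MII, 3333 in PN5, 1795 in early 2-cell, 2698 in mTBE and 2283 in control. The 4 markers of the 2-cell stage summed to 2.16 FPKM in MII, 3.84 in PN5, 17.3 in early 2-cell, 119 in mTBE and 237 in control, so they were lower in mTBE than in control. Of 10 cumulus and granulosa markers 2 to 6 were at 1 FPKM or more, with sums of 34.7 to 137 FPKM, and of 6 sperm markers 1 or 2 were, with sums of 2.49 to 6.85 FPKM. The part of these in the histone values was not tested.

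A few genes carried most of each class. Among kept members the 3 most abundant genes held 67.2% to 88.4% of the H2A sum, 69.8% to 80.7% of H2B, 77.9% to 95.1% of H3 and 56.1% to 74.9% of H4 over the 5 libraries. Hist1h3f, an H3.2 gene, was the leading H3 gene with 266.5 FPKM in MII, 604 in PN5, 866 in early 2-cell, 2372 in mTBE and 2037 in control. That is 48.4% of the kept H3 sum in MII, 76.8% in PN5, 44.1% in early 2-cell, 74.1% in mTBE and 66.3% in control. Hist1h2aa led the kept H2A genes in MII (156 FPKM) and PN5 (215 FPKM), and Hist3h2a led the kept H2A genes in early 2-cell (177 FPKM), mTBE (736 FPKM) and control (579 FPKM).

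The treated and control late 2-cell embryos compare expression after a temporary block of elongation with expression after solvent. Summed over each class, histone mRNA in mTBE stood at or above the control: 1.35-fold for H2B, 1.21-fold for H4, 1.08-fold for H2A and 1.04-fold for H3, with kept members only. Gene by gene the picture split by level. The abundant genes were a little higher in mTBE and the scarce ones lower.

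Hist1h2bk, the most abundant H2B gene, had 2154 FPKM in mTBE and 1315 FPKM in control, 1.64-fold. Hist1h2bj, its neighbour in rank, had 1234 FPKM in mTBE and 857 FPKM in control, 1.44-fold. Hist4h4, an H4 gene and the only member on chromosome 6, had 2739 FPKM in mTBE and 1824 FPKM in control, 1.50-fold. The leading genes of the other classes differed less. Hist1h4c had 2947 FPKM in mTBE and 2492 FPKM in control, 1.18-fold, and Hist1h3f stood at 2372 against 2037 FPKM, 1.16-fold. Hist3h2a had 736 FPKM in mTBE and 579 FPKM in control, 1.27-fold.

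At the other end, Hist2h3b, an H3.2 gene, had 3.09 FPKM in mTBE and 20.3 FPKM in control. Its difference of log2(FPKM + 1), the scale used for calls because it damps low values, was -2.38. Hist1h2ai stood at 1.86 FPKM in mTBE and 11.4 FPKM in control (-2.12), Hist1h2ak at 9.08 and 34.9 FPKM (-1.83), Hist1h2an at 6.30 and 23.8 FPKM (-1.77) and Hist1h2af at 5.76 and 19.8 FPKM (-1.62). These 4 are scarce H2A genes. Hist1h4m went the other way, with 11.0 FPKM in mTBE and 2.08 FPKM in control (1.96), and so did the pseudogene Hist3h2bb-ps with 20.0 and 10.5 FPKM (0.87).

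Genes were compared where either library reached 1 FPKM, and a difference of 1 or more on the log2(FPKM + 1) scale, about 2-fold, was called. Of 54 members measured, 2 were higher in mTBE and 13 lower, against 5.57% of all 13726 genes measured that were higher and 9.99% that were lower. Both higher ones were copies whose assignment is uncertain, Hist1h4m and Hist2h2aa2; among the 52 kept members, 1 was higher and 12 lower. By class, 6 of 15 H2A, 1 of 17 H2B, 4 of 10 H3 and 2 of 12 H4 members were lower. The median difference was -0.21 for the members and -0.05 for all genes, a negative median beside class sums that were above the control.

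Splitting the kept members by their level in PN5 zygotes, a library that this contrast does not use, showed where the 2 directions lay. Of 25 kept members at 10 FPKM or more in PN5, 18 were above 0 in mTBE minus control, none was 2-fold higher (0) and 1, Hist2h4, was 2-fold lower (41.8 FPKM in mTBE, 119 FPKM in control). Their median was 0.22. Of the 5425 genes at that level in PN5, 1.29% were called higher and 5.86% lower, and the median was -0.03. Of 27 kept members under 10 FPKM in PN5, 23 were below 0, 11 were called lower and 1 higher, and the median was -0.85. These 27 include 18 members, described below, that were far lower in PN5 than in both MII and early 2-cell. For the PN5 values of the 18, stage and table cannot be told apart. Without the 18, 2 of the 34 remaining kept members at any PN5 level were called lower. Among the 8301 genes at that level 8.37% were higher and 12.7% lower, with a median of -0.07.

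By mean level in both late 2-cell libraries, all 9 members at 500 FPKM or more were higher in mTBE, by 0.16 to 0.71, and so were 56 of the 60 genes of any kind at that level. Of 15 members between 20 and 100 FPKM, 14 were below 0, with a median of -0.85, against -0.09 for all 2855 such genes. Of 18 members under 20 FPKM 13 were below 0, with a median of -0.42, which was nearer to 0 than that between 20 and 100 FPKM. The counts called lower were 8 of the 18 and 5 of the 15, against 1044 of 10299 and 313 of 2855 genes. The lowest single value, -2.38, also lay under 20 FPKM. The upward shift of the most abundant genes was thus shared with other genes of that level.

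**Figure D3:**
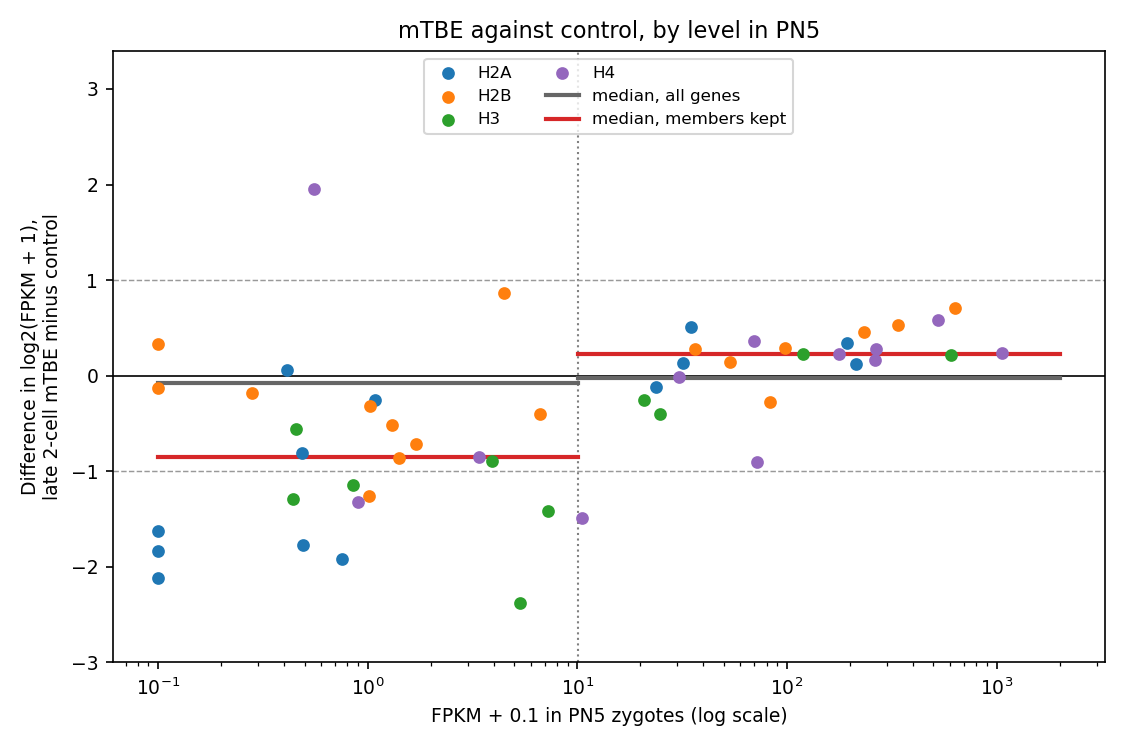
Difference of log2(FPKM + 1), late 2-cell mTBE minus late 2-cell control, for each of the 52 kept members (points, coloured by histone) against the FPKM in PN5 zygotes plus 0.1 (log scale). Red lines are the members' medians, -0.85 under 10 FPKM and 0.22 from 10 FPKM, and grey lines those of all genes, -0.07 and -0.03. Dashed lines mark 2-fold. The points under 10 FPKM include 18 members far lower in PN5 than in both MII and early 2-cell.

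Several members of middle rank differed in direction from the leading gene of their class. Hist1h3g, an H3.1 gene, had 162 FPKM in mTBE and 214 FPKM in control, and Hist1h3c, an H3.2 gene, had 45.2 FPKM in mTBE and 122 FPKM in control, whereas Hist1h3a, of the H3.1 group, had 374 FPKM in mTBE and 320.1 FPKM in control. Hist1h4d had 184 FPKM in mTBE and 346 FPKM in control, against 869 and 776 FPKM for Hist1h4i and 856 and 734 FPKM for Hist1h4h. Within 1 class, genes for the same or nearly the same protein thus lay on both sides of the control. Hist2h2bb was the only H2B gene above 100 FPKM in control that was lower in mTBE, with 313 FPKM in mTBE and 379.7 FPKM in control.

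Members known for polyadenylated mRNA or for lying outside the large cluster include Hist4h4 and Hist3h2a, given above. Hist1h2bc had 261 FPKM in mTBE and 214 FPKM in control, 1.22-fold, and Hist3h2ba had 116 FPKM in mTBE and 95.7 FPKM in control, also 1.22-fold. Hist2h2be, an H2B gene known for its polyadenylated mRNA in other cells, was scarce, with 1.71 FPKM in mTBE, 2.06 FPKM in control and at most 0.181 FPKM in the earlier stages. Among replication-type H2A genes of the large cluster, Hist1h2ac had 132 FPKM in mTBE and 92.7 FPKM in control, and Hist1h2ag had 79.0 FPKM in mTBE and 72.1 FPKM in control.

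From the zygote to the late 2-cell stage nearly every member was higher. In mTBE embryos 49 of 54 members measured were at least 2-fold above PN5 and 1 was lower, against 29.4% of 13489 genes higher and 17.7% lower; in control embryos it was 50 of 55 higher and 1 lower, against 30.5% of 13022 genes higher and 17.0% lower. Both comparisons share the PN5 library. Both late 2-cell groups were cultured for 14 h with DRB or solvent and for another 12 h, while no such culture is listed for PN5. Culture and stage therefore cannot be told apart in this step. The member that was lower in both is Hist2h2aa1, one of the copies set apart. The median difference was 1.94 in mTBE and 2.05 in control, against 0.27 and 0.28 for all genes. In control, all 10 H3 and all 12 H4 members measured were 2-fold higher, as were 16 of 17 H2B and 12 of 16 H2A members.

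Class sums of kept members gave 4.07-fold for H3, 3.53-fold for H4, 3.36-fold for H2B and 2.63-fold for H2A in mTBE over PN5. In control over PN5 they gave 3.91-fold for H3, 2.92-fold for H4, 2.48-fold for H2B and 2.43-fold for H2A. Within H3, the genes for H3.1 (Hist1h3a, Hist1h3g, Hist1h3h and Hist1h3i) summed to 615 FPKM in mTBE, 664 in control and 148 in PN5. The kept genes for H3.2 summed to 2587 FPKM in mTBE, 2410 in control and 638 in PN5. H3.1 genes held 19.2% of the kept H3 sum in mTBE, 21.6% in control and 18.9% in PN5.

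The largest relative differences belonged to genes with values near 0 in PN5, and a low PN5 value itself makes this difference large. Hist2h2ac, an H2A gene of the chromosome 3 cluster, had 66.1 FPKM in mTBE, 116 FPKM in control and 0.386 FPKM in PN5, a difference of 6.40 for control minus PN5. Hist1h3i had 73.0 FPKM in control and 0.357 FPKM in PN5 (5.77), Hist1h2ak 34.9 FPKM in control and was listed at 0 in PN5 (5.17), Hist1h2bl 57.8 and 0.919 FPKM (4.94) and Hist1h3b 47.3 and 0.753 FPKM (4.78). Hist1h3i, Hist1h2ak, Hist1h2bl and Hist1h3b are among 18 kept members, described below, that were far lower in PN5 than in both MII and early 2-cell. For their low PN5 values stage and table cannot be told apart. Genes already abundant in PN5 gained less relative to their level. Hist1h3f had 2037 FPKM in control and 604 FPKM in PN5, 3.37-fold. Hist1h4c had 2492 FPKM in control and 1066 FPKM in PN5, 2.34-fold, and Hist4h4 had 1824 and 523 FPKM, 3.49-fold.

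The germline pair stood at the low end of this step in control embryos. Hist1h2aa had 237 FPKM in mTBE, 217 FPKM in control and 215 FPKM in PN5, the smallest difference of all kept members in control against PN5 (0.02). Hist1h2ba had 559 FPKM in mTBE, 408 FPKM in control and 232 FPKM in PN5 (0.81 for control minus PN5). For mTBE minus PN5 the differences were 0.14 for Hist1h2aa and 1.27 for Hist1h2ba, so Hist1h2ba was called higher there. Both had lower values in early 2-cell embryos than in oocytes: Hist1h2aa had 93.8 FPKM in early 2-cell and 156 FPKM in MII, and Hist1h2ba 75.2 FPKM in early 2-cell and 185 FPKM in MII. Their differences were -0.73 and -1.29 as deposited, -0.29 and -0.86 with FPKM rescaled to a common sum, and -0.16 and -0.73 with the median ratio of all genes set to 0, so the call of Hist1h2ba as 2-fold lower was lost under both scalings. In the polyadenylated RNA of the ICM the pair was near absent, with 0 and 2.47 FPKM for Hist1h2aa and 1.45 and 1.26 FPKM for Hist1h2ba in replicates 1 and 2.

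Early 2-cell embryos compared with MII oocytes, both from single-library tables of the same kind, gave unequal values by class. All 13 H4 members, 11 of 12 H3 members and 12 of 17 H2A members were at least 2-fold higher in early 2-cell, but 4 of 18 H2B members. Over all classes 40 of 60 members were higher and 1, Hist1h2ba, was lower, against 4.02% of 10675 genes higher and 28.8% lower. The members' median was 1.39 while that of all genes was -0.58. Scaling matters here, since genes at 5 FPKM or more in both libraries had a median log2 ratio of -0.57. With that median set to 0, 13 of 18 H2B, 15 of 17 H2A, all 12 H3 and all 13 H4 members were at least 2-fold higher and none (0) was lower, against 9.58% of 11140 genes higher and 14.3% lower. Rescaling to a common sum also gave 13 of 18 H2B members. The low H2B count as deposited thus depends on the scaling, while the class medians kept H2B last: 1.24 for H2B, 1.93 for H2A, 2.40 for H3 and 2.51 for H4 with the median set to 0.

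By sums of kept members, early 2-cell over MII was 4.09-fold for H4, 3.57-fold for H3, 1.47-fold for H2A and 1.35-fold for H2B. As shares of the library the same ratios were 5.54, 4.84, 2.00 and 1.83. H4 over H2B was thus 3.92 in early 2-cell and 1.29 in MII. Hist1h4c had 1189 FPKM in early 2-cell and 321 FPKM in MII, 3.70-fold. Hist1h3f had 866 FPKM in early 2-cell and 266.5 FPKM in MII, 3.25-fold. Among H2B genes Hist1h2bk had 405 FPKM in early 2-cell and 207 FPKM in MII, 1.95-fold, and Hist1h2bc, which also gives polyadenylated mRNA, had 61.3 and 68.5 FPKM; its difference was -0.16 as deposited but 0.28 after rescaling and 0.40 with the median ratio set to 0.

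For many members PN5 zygotes did not lie between these stages. Of the kept members, 18 were at least 4-fold lower in PN5 than in both MII and early 2-cell: 7 H2A, 4 H2B, 4 H3 and 3 H4 genes. This grouping was made after the values were seen. Hist1h3b had 87.0 FPKM in MII, 0.753 in PN5, 459.9 in early 2-cell, 20.9 in mTBE and 47.3 in control. Hist1h4j had 19.4, 0.803, 226, 10.1 and 26.7 FPKM in the same order, and Hist2h3b had 75.5, 5.23, 235, 3.09 and 20.3 FPKM. Among kept members at 4 FPKM or more in both MII and early 2-cell the pattern held for 13 of 42, and among all such genes for 183 of 5852, or 3.13%.

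A part of these genes was lower than in early 2-cell in late 2-cell control too. Of the 52 kept members, 9 were 2-fold lower in late 2-cell control than in early 2-cell, against 8.62% of 13126 genes. None (0) of the 34 kept members outside the 18 was. The 18 were chosen partly by their early 2-cell values, which this comparison uses again, so its contrast with the 34 is partly set by that choice. Stage and table cannot be told apart for the 18. Without these 18, control against PN5 still gave 31 of 34 kept members higher and none (0) lower, against 30.5% and 17.0% of all genes. Their median was 1.57. mTBE against control then gave 0 higher and 2 lower of 34 (5.88%), against 5.57% of all genes higher and 9.99% lower. The share of members lower was thus below that of all genes. Of the 34, 19 were above 0, and their median was 0.14, where all 52 kept members had a median of -0.21.

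The other comparisons that set PN5 beside a single-library table carry the same limit. For PN5 against MII, 13 of 58 members were higher and 26 lower, against 8.77% of 10711 genes higher and 9.23% lower, and their median was -0.22; with kept members it was 0.39, of the opposite sign. For early 2-cell against PN5, 36 of 59 members were higher and 3 lower, against 6.75% of 10837 genes higher and 39.2% lower. For late 2-cell control against early 2-cell, 31 of 61 members were higher and 17 lower, against 49.6% higher and 8.62% lower over all genes. Abundant H4 genes lay between their neighbours in PN5: Hist1h4i had 89.4 FPKM in MII, 262 in PN5, 346 in early 2-cell, 869 in mTBE and 776 in control, and Hist1h4a had 139, 266, 509.9, 781 and 643 FPKM in that order.

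Head-to-head H2A and H2B neighbours had unequal mRNA levels. RefSeq windows gave 9 such pairs of members, with starts 164 to 281 bases apart. In total RNA the H2B partner was the higher of the pair in 8 of 9 in MII, 6 in PN5, 6 in early 2-cell, 8 in mTBE and 7 in control. Hist1h2ao with Hist1h2bq could be compared in MII and early 2-cell only. No floor was set, and some PN5 pairs were near 0. Hist1h2bf had 0.925 and Hist1h2ad 0.651 FPKM there, Hist1h2bl 0.919 and Hist1h2ai 0, and Hist1h2bp 1.31 and Hist1h2an 0.392. Hist1h2bn and Hist1h2ak were both at 0 in PN5. The germline pair was nearly equal in PN5, with 232 FPKM for Hist1h2ba and 215 FPKM for Hist1h2aa. Hist1h2bk exceeded Hist1h2ah, whose window overlaps the one printed above, by 18.1-fold in MII, 26.8-fold in PN5, 12.4-fold in early 2-cell, 51.3-fold in mTBE and 28.8-fold in control. Hist1h2ah itself had 42.0 FPKM in mTBE and 45.6 FPKM in control, so the wider ratio in mTBE lay in the H2B gene. Hist1h2bj exceeded Hist1h2ag 7.21-fold in MII, 10.6-fold in PN5, 6.95-fold in early 2-cell, 15.6-fold in mTBE and 11.9-fold in control.

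In the ICM the order of the pairs was turned round. The H2B partner was the higher in 2 of 8 pairs with values in replicate 1 and in 1 of 8 in replicate 2. Hist1h2ah had 163 and 453 FPKM in replicates 1 and 2, and Hist1h2bk had 34.0 and 44.6 FPKM. H2A over H2B, kept members only, was 9.72 in replicate 1 and 15.5 in replicate 2, where the total RNA libraries lay between 0.264 and 0.454. The ICM values also stand in a separate table, where Hist1h2ao, listed at 0 in the 3-library table, had 415 and 1227 FPKM. RNA type, stage and table differ together between these libraries and cannot be told apart.

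**Figure D4:**
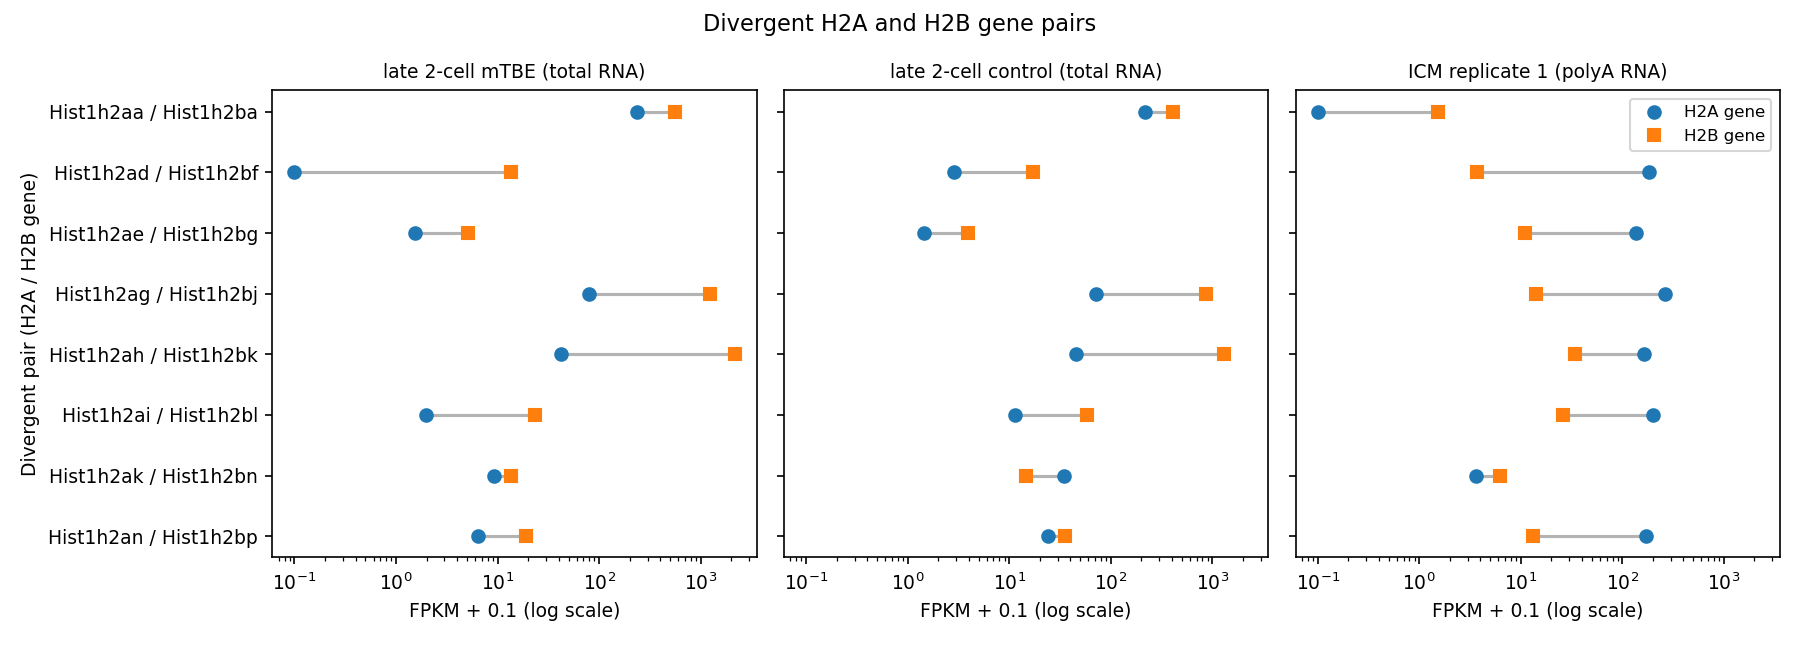
FPKM plus 0.1 (log scale) of both genes of 8 head-to-head pairs in late 2-cell mTBE, late 2-cell control and ICM replicate 1. Squares (H2B) lie to the right of circles (H2A) in all 8 pairs in mTBE and 7 in control, and in 2 of 8 in the ICM library.

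All members together summed to 3082 FPKM in ICM replicate 1 and 6714 FPKM in replicate 2, or 4898 ± 2569 FPKM (SD, n = 2). Between these replicates 0 members were 2-fold higher and 16 of 55 lower in replicate 1, 12 of them H2A genes, against 2.79% of 9983 genes higher and 2.31% lower. Of the H2A genes, Hist1h2ao had 415 and 1227 FPKM and Hist1h2ag 264 and 684 FPKM in replicates 1 and 2. Hist1h4d held most of the H4 sum, with 335 and 403 FPKM. Libraries of 1 group thus differed by more than 2-fold in H2A mRNA. Both ICM libraries also held trophectoderm markers: all 6 were at 1 FPKM or more and summed to 1767 and 1500 FPKM, beside 423 and 335 FPKM for 5 ICM markers; their part in the histone levels was not tested.

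Genes that make, process or carry histones were counted from 3 lists. Of 30 genes for histone mRNA processing and turnover, none (0) was higher and 5 were lower in mTBE than in control, against 5.57% and 9.99% of all genes, with a median of -0.21. The lower ones were Ccne1, a cyclin that drives entry into S phase (62.6 FPKM in mTBE, 141 FPKM in control), Ncbp1, a cap-binding subunit (20.8 and 62.1 FPKM), and the cleavage factor genes Cpsf1, Cpsf3 and Cpsf4. Slbp, whose protein binds the stem-loop, had 264 FPKM in MII, 518 in PN5, 323 in early 2-cell, 77.7 in mTBE and 118 in control. Slbp was thus lowest in mTBE and control, the libraries with the largest sums and shares of kept members. With all members the histone share was largest in early 2-cell (6.84%), where Slbp had 323 FPKM. A relation between them was not tested. Npat, the coactivator of histone genes, had 3.31, 6.68, 1.85, 19.9 and 21.5 FPKM in the same order. In control against PN5, 8 of the 30 were higher and 5 lower, against 30.5% and 17.0% of all genes. In early 2-cell against MII 1 was higher and 10 lower, against 4.02% and 28.8%.

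Of 26 histone chaperone genes measured, none (0) was higher and 1, the importin Ipo4, was lower in mTBE (2.39 FPKM) than in control (16.7 FPKM), against 5.57% of all genes higher and 9.99% lower. In control against PN5, 5 were higher and 6 lower, against 30.5% and 17.0% of all genes. Chaf1a, the large subunit of the assembly factor CAF-1, had 23.3 FPKM in mTBE, 40.1 FPKM in control and 164 FPKM in PN5. Npm2, the egg nucleoplasmin, had 111 FPKM in mTBE, 107 FPKM in control and 434 FPKM in PN5. Rbbp7, a histone-binding subunit, had 134, 131 and 586 FPKM in the same order.

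The replacement variants are made outside S phase too. Of 13 measured, 1 was higher in mTBE than in control (H2afb1, 1.53 FPKM in mTBE and listed at 0 in control) and 1 lower (H2afv, 12.4 FPKM in mTBE and 28.5 FPKM in control), against 5.57% and 9.99% of all genes. In control against PN5, 6 of 12 were higher and 2 lower, against the same 30.5% and 17.0%. H3f3b, one of the genes for H3.3, had 608 FPKM in mTBE, 438 FPKM in control and 349 FPKM in PN5. H2afx had 289 FPKM in mTBE, 357 FPKM in control and 81.3 FPKM in PN5. The list includes the members Hist1h2aa and Hist1h2ba.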

How the data were processed

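RNA was measured in 5 total RNA libraries depleted of ribosomal RNA, 1 per group, and in 2 Smart-seq2 libraries of the ICM. The authors deposited FPKM per gene symbol. Cufflinks 2.1.1, TopHat2 2.1.1, CASAVA 1.8 and the build mm9 are listed, with no role given, in the submitters' processing notes. The treatment of multi-mapped reads and of strand is not given in the sources used here, and read depth is unknown. The MII value column bears a name that a chromatin sample also bears; it was taken as MII because the table is listed with that sample. No value column lacked a sample (0).

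Rows that share a symbol were summed with pandas 2.3.3 in Python 3.11.15. Differences were calculated on the log2(FPKM + 1) scale (pseudocount 1) where either library reached 1 FPKM, and called at 1 or more. No test was made, since each total RNA group held 1 library. The calculation was tested on simulated data. Summing by identical protein was not run; H3.1 and H3.2 were summed by gene name in its place. RefSeq (GRCm38.p6, another build) gave names, chromosomes, neighbours and promoter windows.

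The named genes were the 4 most abundant members of each histone, the germline pair, 7 members known for polyadenylated RNA or for lying outside the large cluster, the 5 largest differences in each direction of mTBE against control and control against PN5 at 10 FPKM or more, each copy set apart and up to 4 genes of each list. Other genes named (such as Hist2h4, Hist1h4j, Hist1h4d, Npat, Ccne1, Ncbp1, Ipo4, H2afv and H2afb1) were chosen after their values were seen. The members and lists were chosen with earlier results of these data known.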

Additional observations from a re-analysis of the deposited data

How the results depend on the processing

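No p-value, SD or counting interval could be given for the total RNA libraries, since each group held 1 library and depth is unknown. No paired analysis was possible because the total RNA groups share fewer than 2 replicate numbers. Settings were a pseudocount of 0.1 FPKM, a filter of 5 FPKM or none, FPKM rescaled to a common sum, the median ratio set to 0, the highest of repeated rows, and leaving out pseudogene symbols or the copies set apart; leaving out the Hist2h2aa pair and Hist1h2bq with those copies was chosen after seeing the data. A count, median or sum was taken as moved when it changed by 1.5 times or more. Of the alternatives for these counts, medians and sums, 356 stayed within that and 45 moved. For those 45 the cause was not tested unless the setting itself removes the values. Of the alternatives for the other results, such as single-gene differences, 1197 were labelled the same and 268 moved. Hist1h2af in control against PN5, for example, went from 4.38 to 7.63 with the pseudocount of 0.1. The text below gives the 45 only.

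For mTBE against control, leaving out the set-apart copies, the pair and Hist1h2bq gave 1 member higher instead of 2, and the filter of 5 FPKM gave 0 replacement variants higher. In control against PN5 the 1 lower member became 0 with that filter, with the highest of repeated rows and without the copies and the pair, and 3 variants were higher with the filter. In mTBE against PN5 the lower member became 0 in the same settings and 2 after rescaling, and 4 variants were higher with the filter.

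In early 2-cell against MII the lower member became 0 after rescaling and with the median ratio set to 0. Of all genes, 14.7% were then higher and 18.3% lower after rescaling, and 9.58% and 14.3% with the median setting. That median setting also gave 2 processing genes higher and 3 lower, 1 chaperone higher and 0 lower, and 2 variants higher and 1 lower; with the filter of 5 FPKM 0 processing genes were higher. In PN5 against MII the filter gave 17 members lower and a median of 0.46, rescaling gave 7 higher and a median of -1.11, the median setting gave 7 higher, and leaving out the copies and the pair gave a median of 0.39, so the sign of that median depends on the setting. In early 2-cell against PN5 the median was 2.61 with the pseudocount of 0.1, 2.80 after rescaling and 2.68 with the median setting, and 0 members were lower in the last 2. In control against early 2-cell, rescaling gave 18 members higher and a median of 0.35; 11 were lower without the copies set apart and 9 without the pair and Hist1h2bq too. Between the ICM replicates 1 member was higher with the pseudocount of 0.1 and after rescaling. Apart from early 2-cell against MII, the share of all genes under each setting is not given here, so these counts cannot be set beside it.

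The summed H2A FPKM was 1445 in MII and 3458 in early 2-cell with the highest of repeated rows, and 315 and 465 without the copies and the pair, with a ratio of early 2-cell to MII of 1.47. The H3 sum in MII was 550.4 without the copies set apart, with or without the pair. Under a floor of 100 FPKM 3 copies were set apart. Leaving out either ICM replicate gave sums of 3082 to 6714 FPKM.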
